A study of Homo sapiens with 8 samples.

Results

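The first 20 Mb of human chromosome 6, the distal end of its short arm, were examined for short nascent strand sequencing (SNS-seq) signal in colon cancer cells that lack single subunits of the origin recognition complex (ORC). The region was chosen by the fall of its reads and of its called origins in cells without ORC2, so those values are given here as a description and carry no test. Its members are the rows of the deposited count tables whose midpoint lies below 20 Mb on chromosome 6: 319 of 42162 rows of the table for WT and ORC1KO cells, 216 of 44174 rows for WT and ORC2KO, and 355 of 46467 rows for WT and ORC5KO. A row is a stretch where an origin was called in at least 1 of the lines of that table. In the lists of origins per line, the region held 212 of 30197 WT origins, 243 of 33535 ORC1KO origins, 46 of 37813 ORC2KO origins and 301 of 41332 ORC5KO origins. The comparison region was chromosome 6 from 20 to 60 Mb, with 709, 775 and 791 rows in the 3 tables.

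All 8 samples were HCT116, an epithelial colon cancer line, in a background without p53 that the WT cells carry too. WT cells were compared with ORC1KO, ORC2KO and ORC5KO cells, in which the gene named was deleted with CRISPR-Cas9, all of them growing in culture with no other treatment, with 2 replicates per line. The replicates of a line were merged in the deposited tables, so each line gives 1 value per origin, no difference below has a replicate check, and the intervals given cover counting error or the spread over origins and not the spread between cultures. A figure legend of the study speaks of the cells as clones, and the loss of each subunit was not checked here, since no expression values were analysed. The study itself found the deleted subunit of each line undetectable on western blots. It also discusses a trace of shortened ORC2 protein that others reported in the ORC2KO cells and that it did not detect.

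ORC is the complex of 6 proteins that marks replication origins and loads the MCM2-7 helicase there before S phase. ORC1, ORC2 and ORC5 are all core subunits of it, and ORC1 carries an ATPase used in loading. The study found that ORC1KO and ORC2KO cells did not differ significantly from WT in their rate of MCM loading, and that ORC5KO cells were faster. None of the 3 deleted genes lies on chromosome 6. SNS-seq isolates the short, RNA-primed strands made next to an origin, so the reads at an origin rise with how often it fires and with how many copies of that DNA the cells hold. No values of total genomic DNA were analysed here, and the number of copies and the use of each copy cannot be told apart from these counts.

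The sequences of a few origins show what the reads came from. Each line below gives the middle 200 bases of an origin, from the plus strand of GRCh38 (hg38), 5′ to 3′. Capitals mark a G-quadruplex motif, searched on both strands as 4 runs of GGG with 1 to 7 bases between them. They were chosen as the origins with the most WT reads, the lowest and the highest ORC2KO fold, and those on each side of the step described below.
chr6:693804-694003 (lncRNA intron, most WT reads): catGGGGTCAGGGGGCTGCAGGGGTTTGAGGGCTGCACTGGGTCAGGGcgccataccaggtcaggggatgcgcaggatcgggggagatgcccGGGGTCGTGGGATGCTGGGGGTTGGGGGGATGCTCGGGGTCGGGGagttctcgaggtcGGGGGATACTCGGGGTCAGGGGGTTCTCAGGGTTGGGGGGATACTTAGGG
chr6:419056-419255 (between genes near IRF4): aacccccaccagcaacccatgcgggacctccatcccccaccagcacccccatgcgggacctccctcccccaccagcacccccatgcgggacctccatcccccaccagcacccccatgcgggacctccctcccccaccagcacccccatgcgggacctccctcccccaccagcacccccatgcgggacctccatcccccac
chr6:2944757-2944956 (between genes near SERPINB6, lowest fold): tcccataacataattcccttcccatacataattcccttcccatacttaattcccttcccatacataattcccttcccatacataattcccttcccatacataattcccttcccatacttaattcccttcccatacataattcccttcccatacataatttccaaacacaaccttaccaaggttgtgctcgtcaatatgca
chr6:3145288-3145487 (BPHL intron, highest fold): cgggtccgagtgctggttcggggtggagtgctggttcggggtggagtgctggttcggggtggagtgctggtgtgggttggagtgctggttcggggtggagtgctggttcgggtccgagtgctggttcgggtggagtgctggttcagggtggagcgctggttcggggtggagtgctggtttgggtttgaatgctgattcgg
chr6:20206699-20206898 (MBOAT1 intron, last ORC2KO origin before the step): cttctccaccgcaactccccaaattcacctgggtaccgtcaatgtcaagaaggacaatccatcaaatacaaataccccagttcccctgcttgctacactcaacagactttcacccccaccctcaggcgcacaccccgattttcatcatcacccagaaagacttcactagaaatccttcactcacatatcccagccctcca
chr6:26583813-26584012 (between genes near ABT1, before the step): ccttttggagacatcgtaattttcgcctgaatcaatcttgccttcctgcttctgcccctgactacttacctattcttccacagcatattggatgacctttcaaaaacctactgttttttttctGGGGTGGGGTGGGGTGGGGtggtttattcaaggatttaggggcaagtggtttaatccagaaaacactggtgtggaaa
chr6:27247199-27247398 (between genes near PRSS16, first origin after the step): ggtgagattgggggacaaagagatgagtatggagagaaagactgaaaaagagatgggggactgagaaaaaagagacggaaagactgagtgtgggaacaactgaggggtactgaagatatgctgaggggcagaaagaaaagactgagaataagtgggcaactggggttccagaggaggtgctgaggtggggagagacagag
The origin with the most WT reads held 3 stretches of the motif in these 200 bases, and the one before the step held 1. Such windows held the motif in 44 of the 216 rows (20.4%), and in 28.3% of rows past the step up to 60 Mb, while 1.94% of all windows of the same length in the first 20 Mb of the chromosome held it. Several of the windows are tandem repeats with most of their G on 1 strand. Near IRF4, 91.7% of the bases equalled the base 32 positions on. In the BPHL intron 81.9% did so at a spacing of 18, and near SERPINB6 79.7% at 18. Windows in which at least 75% of the bases repeated at some spacing of 5 to 100 made up 8 of the 216 rows, against 2 of 1994 evenly spaced windows of the region. Those 8 rows had a median ORC2KO log2 fold of −0.41, and the others −0.96. They include both the SERPINB6 row with the lowest fold and the BPHL row with the highest. Repeat rows were also the higher ones elsewhere. Past the step up to 60 Mb, 4 such rows had a median of 0.22 and the others 0.09. Over all of chromosome 6, 52 such rows had 0.11 and the others −0.02.

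Reads over the region were lower in ORC2KO cells than in WT cells. Scaled to RPM, the reads of an origin per 1000000 reads of the line in the table, the median origin fell from 16.1 RPM in WT to 8.71 RPM in ORC2KO, from 107 reads to 68, while the line as a whole had more reads. The median log2 fold over the 216 origins was −0.95 (95% order-statistic interval −0.98 to −0.90), a ratio of 0.519, and the central 50% of origins lay between −1.19 and −0.69. The summed reads of the region gave a ratio of 0.565. In the same region, the median log2 fold was 0.01 (−0.04 to 0.07) in ORC1KO over 319 origins, and −0.02 (−0.05 to 0.01) in ORC5KO over 355. Both of these medians have intervals that include 0. The 3 tables share the WT reads, so their values are set side by side and no correlation between them was computed.

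With a call at 1.5-fold in RPM (log2 of 0.58), 179 of 216 origins were down in ORC2KO (82.9%), where 3.58% of all rows of that table were down, and 1 was up, where 4.66% of all rows were up. In ORC1KO, 12 of 319 origins were down, or 3.76% against 3.95% of all rows, and 16 were up, against 7.04% of all rows. In ORC5KO, 5 of 355 origins were down, or 1.41% against 0.68% of all rows, and 4 were up, against 2.08% of all rows. The ORC2KO fall ran through the region, and 212 of 216 origins had a log2 fold below 0 (98.1%), where 56.0% of all rows of that table were below 0. Among windows of 20 Mb over all chromosomes with at least 20 rows, this region had the lowest ORC2KO median of 159 windows, and the next lowest was 100 to 120 Mb of chromosome 13 with −0.46. For ORC1KO the same window ranked 84 of 158 from the lowest, and for ORC5KO 30 of 159. The region was chosen by its fall in ORC2KO, so its ORC2KO rank followed from that choice.

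**Figure D1:**
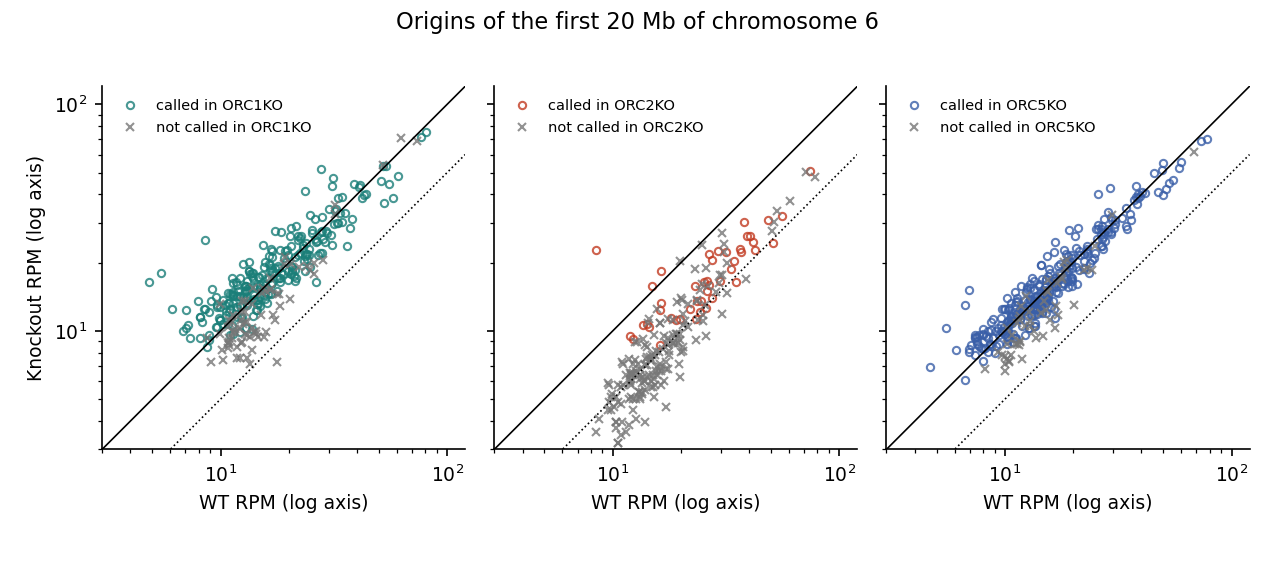
RPM of each origin of the first 20 Mb in WT (x axis, log) and in the knockout line (y axis, log), with 1 panel per table. Circles are origins called in the knockout line, crosses are origins called only in WT, the solid line marks equal RPM and the dotted line a ratio of 0.5. In ORC2KO 212 of 216 points lie below the solid line, while in ORC1KO 157 of 319 and in ORC5KO 187 of 355 do.

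The same 212 WT origins can be followed through the 3 tables, which avoids the difference in which rows each table holds. Their median log2 fold was −0.10 (−0.13 to −0.07) in ORC1KO, −0.95 (−1.0 to −0.91) in ORC2KO and −0.09 (−0.13 to −0.06) in ORC5KO. These origins were selected by their call in WT, and over the other chromosomes WT origins had medians of −0.12, −0.10 and −0.06 in the 3 lines. Of the 212 origins, 12 were down in ORC1KO, 177 in ORC2KO and 5 in ORC5KO. ORC2KO had the lowest log2 fold of the 3 knockout lines at 211 of the 212 origins (99.5%), against 34.4% of WT origins on other chromosomes and 14.7% between the step and 60 Mb.

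**Figure D2:**
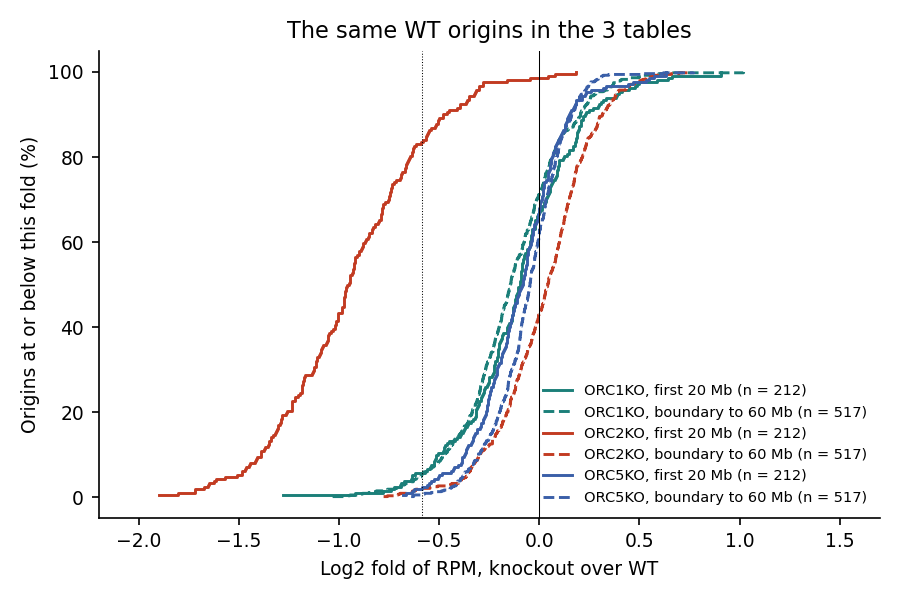
Share of WT origins (y axis, percent) at or below each log2 fold of knockout over WT (x axis), for the first 20 Mb (solid, n = 212) and for the fitted boundary to 60 Mb (dashed, n = 517). The dotted vertical line marks a fall of 1.5-fold. The solid ORC2KO curve crosses 50% at −0.95 and the other 5 curves cross it between −0.14 and 0.04.

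Fewer peaks were called in ORC2KO as well. Of the 212 WT origins, 41 overlapped an ORC2KO origin (19.3%, Wilson 95% interval 14.6 to 25.2), 136 an ORC1KO origin (64.2%, 57.5 to 70.3) and 158 an ORC5KO origin (74.5%, 68.3 to 79.9). The share without a counterpart was thus 80.7% in ORC2KO, where 21.4% of all WT origins had none. In ORC1KO it was 35.8%, where 28.9% of all WT origins had none, and in ORC5KO 25.5%, where 17.4% had none. Of these WT origins, 81 had a counterpart in ORC1KO and ORC5KO but none in ORC2KO (38.2%), a pattern seen in 4.05% of WT origins on other chromosomes. Another 37 had one in all 3 lines (17.5%, against 61.0% on other chromosomes) and 36 in none (17.0%, against 8.04%). The density of called origins was 10.6 per Mb in WT, 12.2 in ORC1KO, 2.30 in ORC2KO and 15.1 in ORC5KO.

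The lines also differed in origins that were called outside the WT list. In the first 20 Mb, 108 of 243 ORC1KO origins (44.4%) and 144 of 301 ORC5KO origins (47.8%) overlapped no WT origin, while 5 of the 46 ORC2KO origins (10.9%) did so. On other chromosomes those shares were 35.8%, 39.5% and 37.2%. WT reads were present there without a call: rows called only in the knockout line had a median of 76 WT reads and 94.5 knockout reads in ORC1KO, 77 and 102.5 in ORC5KO, and 107 and 97 in ORC2KO. All 46 ORC2KO origins overlapped an ORC5KO origin, and 42 overlapped an ORC1KO origin. The same shares over all ORC2KO origins were not computed, and the ORC5KO list is the longest, so these counts describe no trait of the region.

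Loss of the call and loss of reads were not the same thing. The 171 origins called in WT but not in ORC2KO went from a median of 101 reads to 56, with a median log2 fold of −1.01 (−1.09 to −0.96), and 152 of them were down. The 40 rows called in both lines had a median of 176.5 WT reads and 129 ORC2KO reads. Their median log2 fold was −0.66 (−0.79 to −0.55), and 25 of them were down, although they kept their call. On other chromosomes, rows called in both lines had a median of −0.06 and rows called only in WT −0.34. The ORC2KO call rests on the same reads as the fold, so rows that kept it tend to the higher fold. This order is a description only. WT depth went with which calls were kept. Of origins with 100 to 150 WT reads, 8.06% were called in ORC2KO in this region and 80.6% on other chromosomes, and with 150 to 200 WT reads the shares were 46.9% and 91.2%.

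The fall did not end at 20 Mb. The last origin inside that limit, chr6:19702578-19703017 in an intron of the lncRNA LNC-LBCS, had 76 WT reads and 28 ORC2KO reads, a log2 fold of −1.67 (exact 95% interval −2.35 to −1.03). The first outside it, chr6:20205722-20206149 in an intron of MBOAT1, a lysophospholipid acyltransferase gene, had 106 and 75 reads, a log2 fold of −0.73 (−1.18 to −0.29). The 32 rows between 20 Mb and the step had a median log2 fold of −0.91 (−1.06 to −0.77), and 30 of them were down. Among them was an origin in an exon of E2F3, a transcription factor of the cell cycle, at chr6:20402929-20404231. It had 478 WT reads and 224 ORC2KO reads, a log2 fold of −1.33, while it had −0.44 in ORC1KO and −0.13 in ORC5KO.

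A single split of the 991 ORC2KO log2 folds between 0 and 60 Mb, placed by least squares, fell at 26.92 Mb. It left 248 origins with a mean of −0.93 before it and 743 with a mean of 0.09 after it, a step of 1.03 that took up 66.9% of the variance. The split lies in a gap of 649349 bp between origins. The best split took up 1.79% of the variance in ORC1KO and 0.636% in ORC5KO, at other places. The last row before the gap, chr6:26597155-26597768 in an exon of ABT1, an activator of basal transcription, had 185 WT reads and 135 ORC2KO reads, a log2 fold of −0.69 (−1.02 to −0.36). The first row after it, chr6:27247118-27247479, 222 bp from PRSS16, a serine protease gene of the thymus, had 119 and 120 reads, a log2 fold of −0.22 (−0.60 to 0.16). These intervals overlap, so the step rests on the origins of each side together. The rows just before, 12728 bp from ABT1 and in an exon of BTN2A2, a butyrophilin gene, had log2 folds of −0.91 and −0.99. The rows just after, in an exon of PRSS16 (269 and 316 reads) and 8635 bp from POM121L2 (86 and 93 reads), had −0.0013 and −0.12. ABT1 reaches into the gap, which holds the genes ZNF322, H2BC11, H2AC11, H4C9, H2BC12 and H2AC12.

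In 1 Mb steps, 19 of the first 20 held rows, and their ORC2KO medians ran from −1.18 to −0.52. All were below −0.58 except the step from 11 to 12 Mb, which had 6 origins. The first 1 Mb, next to the telomere, had 25 origins with a median of −0.90, of which 21 were down. The 5 steps with rows from 20 to 27 Mb had medians from −1.18 to −0.80. The step from 27 to 28 Mb had −0.13 over 10 origins, and the 8 steps from 28 to 36 Mb were all above 0, from 0.11 to 0.34. Within the first 26.92 Mb, the best further split, at 3.16 Mb, took up 2.92% of the variance, with means of −0.82 and −0.97 on its sides. In ORC1KO the medians of the first 20 steps ran from −0.21 to 0.20, and in ORC5KO from −0.14 to 0.12.

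**Figure D3:**
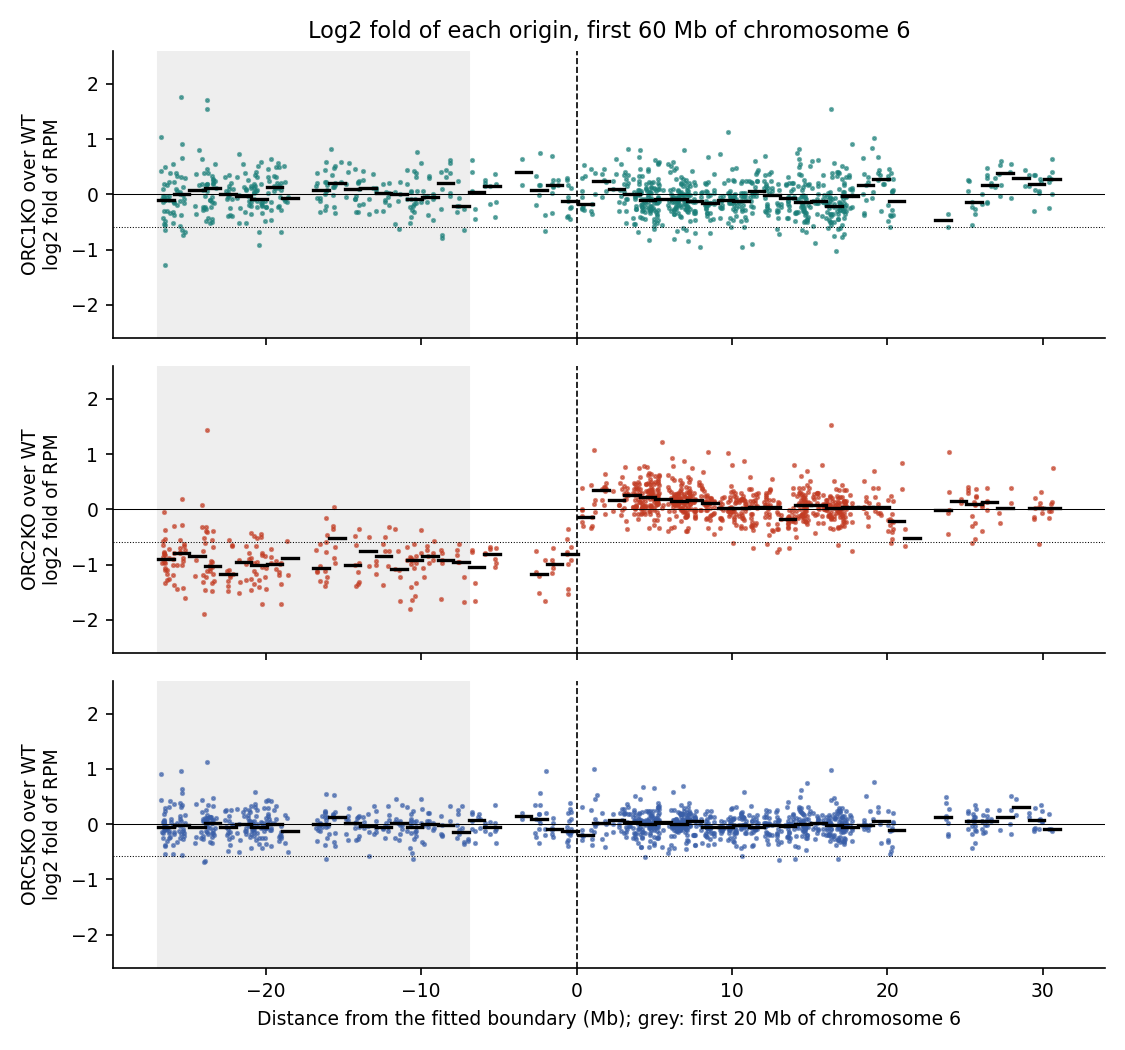
Log2 fold of RPM of each origin (points, y axis) against its distance from the fitted boundary in Mb (x axis), for the first 60 Mb of chromosome 6. Each panel is 1 table, black bars are medians of 1 Mb steps, the grey area is the first 20 Mb, and the dotted line marks a fall of 1.5-fold. In ORC2KO every step median left of the boundary lies at or below −0.52 and the level changes at the boundary, and in ORC1KO and ORC5KO no such change is seen.

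Called origins came back in ORC2KO at the same gap. The last ORC2KO origin before the step was chr6:20206529-20207047 in MBOAT1, and the next was chr6:27247121-27247470, a stretch of 7.04 Mb without a call. WT, ORC1KO and ORC5KO cells had calls up to the ABT1 exon and lacked them over 0.65 Mb. From the step to 60 Mb, 71.6% of 517 WT origins had a counterpart in ORC1KO, 83.4% in ORC2KO and 81.2% in ORC5KO, and the ORC2KO list had 1.27 times as many origins as the WT list, close to its 1.25 times over all chromosomes. The median log2 fold there was 0.09 in ORC2KO, with 12 of 743 origins down. The difference of medians between the first 20 Mb and 20 to 60 Mb was −1.03 in ORC2KO, 0.06 in ORC1KO and −0.01 in ORC5KO. Against the rows past the step alone it was −1.04 in ORC2KO. Over rows that overlap a WT origin, the difference from 20 to 60 Mb was −0.98 in ORC2KO, 0.04 in ORC1KO and −0.04 in ORC5KO.

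**Figure D4:**
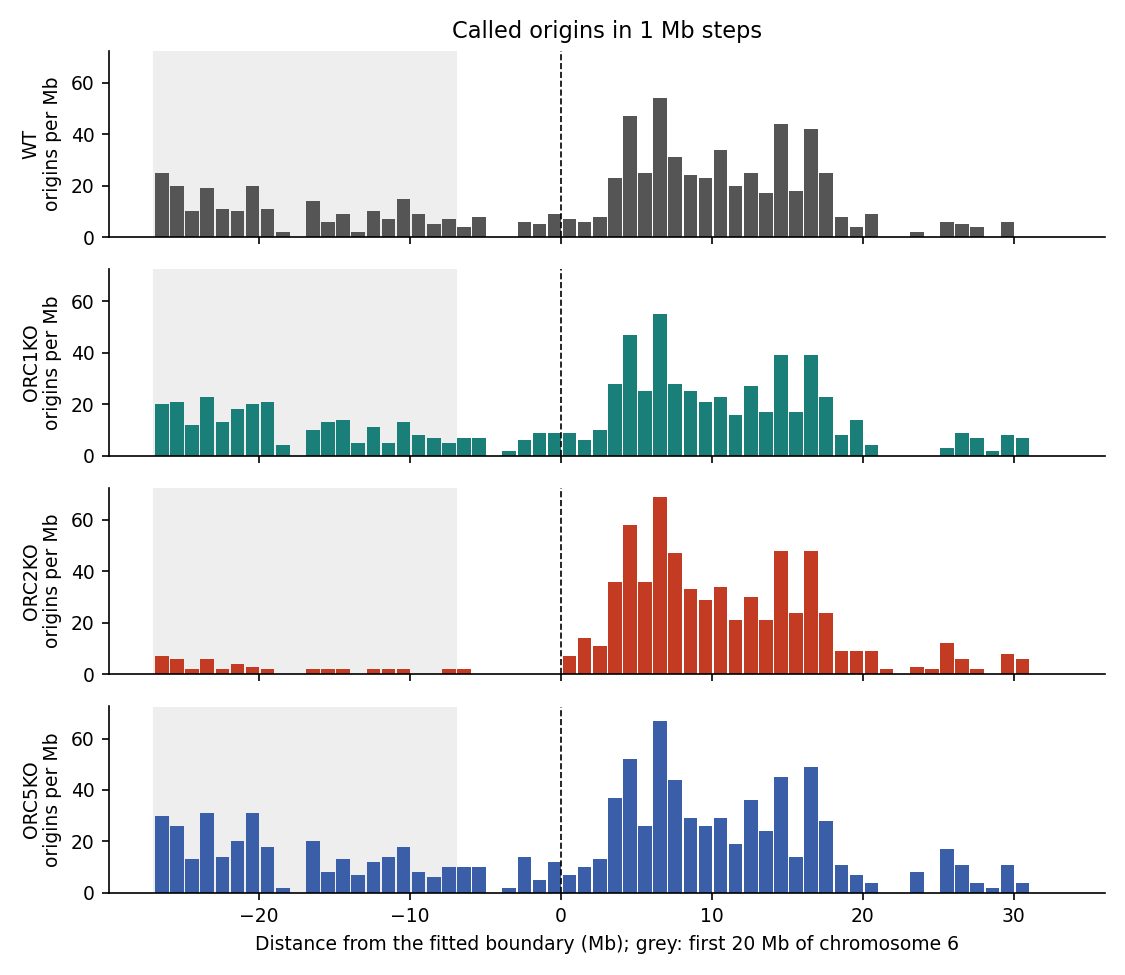
Number of called origins in each 1 Mb step (y axis) against distance from the fitted boundary in Mb (x axis), for the 4 lists of origins. The grey area is the first 20 Mb. The ORC2KO list holds 46 origins there and 2 more before the boundary, and the WT list 212 and 32.

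The 5 origins with the most WT reads all stayed well covered in ORC2KO cells. The origin in an intron of the lncRNA gene ENSG00000271727, chr6:693320-694487, had 520 WT reads (78.3 RPM) and 373 ORC2KO reads (47.8 RPM), a log2 fold of −0.71 (−0.91 to −0.52). It had 504 reads in ORC1KO (75.3 RPM) and 597 in ORC5KO (70.0 RPM), and it was called in all lines except ORC2KO. The origin at chr6:418633-419678, 7190 bp from IRF4, had 491 WT reads and 397 ORC2KO reads, a log2 fold of −0.54 (−0.73 to −0.35), and was called in all 4 lines. The origin in an exon of SIRT5, a mitochondrial deacylase gene, chr6:13574430-13575408, had 471 and 391 reads and a log2 fold of −0.50 (−0.70 to −0.31). Its reads in ORC1KO (462) and ORC5KO (526) gave −0.09 and −0.15, and it was called in WT alone. The origin at chr6:3516261-3517319, 59211 bp from SLC22A23, gave −0.69 in ORC2KO, with 0.18 in ORC1KO and −0.16 in ORC5KO, and was called in WT and ORC5KO. At the FOXF2 exon, chr6:1388982-1389724, 369 WT reads stood against 251 in ORC2KO (−0.79) and 259 in ORC1KO (−0.57, −0.81 to −0.34). That was the 1 origin of the 5 at which ORC1KO reads were also well below WT.

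The strongest falls were at origins with fewer reads. The lowest log2 fold among the 209 origins with at least 100 reads of both lines together was −1.90 (−2.48 to −1.34), at chr6:2944613-2945100, 3059 bp from SERPINB6, a serpin gene. It had 114 WT reads and 36 ORC2KO reads, with 100 in ORC1KO and 88 in ORC5KO. The origin at chr6:16190995-16191607, 42747 bp from MYLIP, a ubiquitin ligase gene for the LDL receptor, had 92 and 31 reads, a log2 fold of −1.80 (−2.44 to −1.20). The next was the LNC-LBCS origin described above. With the origins cut into 3 equal groups by WT reads, the ORC2KO median was −1.03 in the lowest, −1.01 in the middle and −0.78 (−0.82 to −0.70) in the highest. WT reads are part of the fold, so this order is a description only.

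In 4 of the 216 origins the ORC2KO log2 fold was not below 0. At all 4, reads were above WT in ORC1KO and in ORC5KO too. The 4 were picked by their high ORC2KO fold and the lines share the WT reads, so a low WT count raises all 3 folds, and this likeness is a description only. The origin in an intron of BPHL, a hydrolase gene, chr6:3145007-3145768, had 56 WT reads and 177 ORC2KO reads, a log2 fold of 1.43 (0.99 to 1.89), with 1.55 in ORC1KO and 1.12 in ORC5KO. It was called in each knockout line and not in WT. The origin at chr6:1544034-1544526, 65389 bp from FOXC1, had 0.18 (−0.19 to 0.55) in ORC2KO, 0.66 in ORC1KO and 0.57 in ORC5KO. In an intron of SERPINB1, an inhibitor of neutrophil proteases, the values were 0.08 (−0.31 to 0.48), 0.64 and 0.44. In an intron of NEDD9, a scaffold protein of focal adhesions, they were 0.05 (−0.30 to 0.39), 0.48 and 0.53. In 3 of these 4 origins the ORC2KO value was the lowest of the 3 lines.

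Among protein-coding genes listed by function, 10 of 48 in the first 20 Mb had a row of the ORC2KO table within 1000 bp of their start. All 10 had an ORC2KO log2 fold with an interval below 0, and 6 passed 1.5-fold, with a median of −0.82 and a range from −1.42 to −0.35. In ORC1KO, 13 genes had a row, with a median of −0.09 and 3 down, and in ORC5KO 12 had a row, with a median of −0.07 and none down. Over all rows of the region the medians were −0.95 in ORC2KO, 0.01 in ORC1KO and −0.02 in ORC5KO. At all protein-coding gene starts of the region, 8 of 12 rows were down in ORC2KO (66.7%). Rows at protein-coding gene starts on other chromosomes had a median of −0.04 in ORC2KO, with 2.54% down. In ORC1KO their median was −0.22, with 10.4% down, and in ORC5KO −0.03, with 0.432% down.

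Of 8 transcription factor genes, 3 had a row and all 3 were down in ORC2KO, where 82.9% of all rows of the region were down. At FOXC1, a forkhead factor gene of mesenchyme and eye, 100 WT reads stood against 44, a log2 fold of −1.42 (−1.96 to −0.89), with −0.73 in ORC1KO and −0.12 in ORC5KO. At IRF4, a factor of lymphoid cells, 245 WT reads stood against 157 summed over 2 rows (−0.88, −1.17 to −0.58), and FOXF2 is described above. These 3 had ORC1KO log2 folds from −0.73 to −0.42, all with intervals below 0. Of 10 chromatin and nuclear genes, DEK, a chromatin-bound protein, had 84 and 52 reads (−0.93, −1.45 to −0.41), and JARID2, a partner of Polycomb repressive complex 2, had 205 and 189 reads (−0.35, −0.64 to −0.06). DEK was at −0.78 in ORC1KO as well.

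Of 7 cytoskeleton genes, CAP2, an actin regulator, had 195 and 127 reads (−0.85, −1.19 to −0.52), and the tubulin gene TUBB2A had 182 and 161 (−0.41, −0.73 to −0.10). TUBB2A kept a call in all 4 lines. Of 13 genes of metabolism and protein handling, TXNDC5, a disulfide isomerase of the endoplasmic reticulum, had 170 and 102 reads (−0.97, −1.34 to −0.61) and −0.69 in ORC1KO. NQO2, a quinone reductase, had 85 and 70 reads (−0.51, −0.99 to −0.04) with 0.39 in ORC1KO, and SIRT5 is described above. None of 10 signalling and cell death genes had a row in the ORC2KO table.

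**Figure D5:**
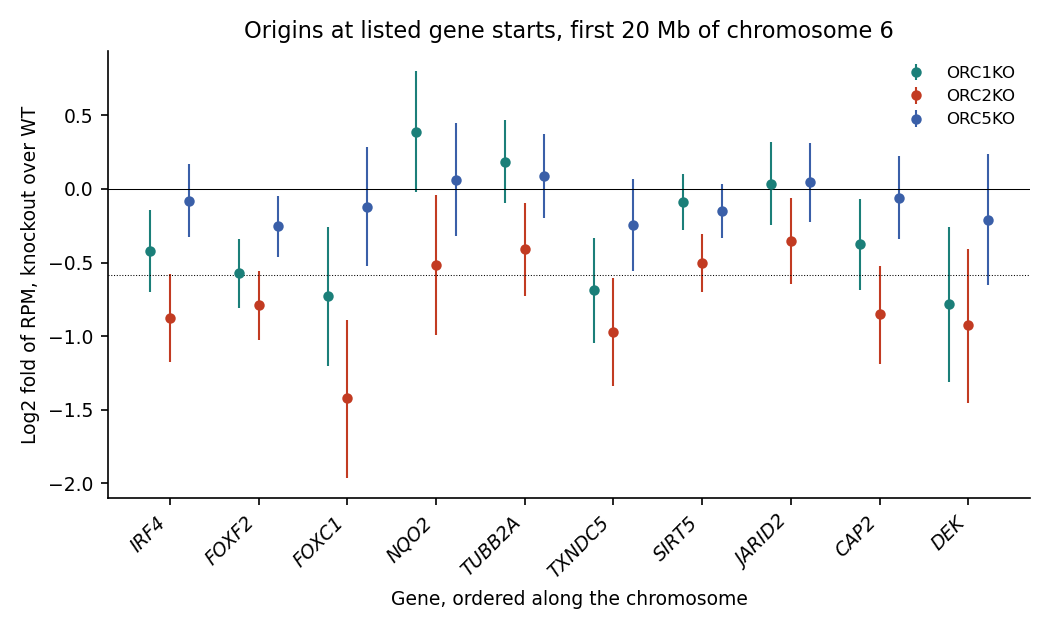
Log2 fold of RPM of knockout over WT (y axis) at origins within 1000 bp of the start of 10 listed genes (x axis, in chromosomal order), with exact 95% intervals that cover counting error only. The dotted line marks a fall of 1.5-fold. All 10 ORC2KO intervals lie below 0, and each ORC2KO point lies below the ORC1KO and ORC5KO points of its gene.

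The fall showed at every kind of site. In the ORC2KO table, the 12 origins at a protein-coding gene start had a median log2 fold of −0.80 (−0.96 to −0.50), the 97 in a gene body −0.96 (−1.03 to −0.86), the 44 in lncRNA genes alone −0.97 (−1.12 to −0.88) and the 63 between genes −0.95 (−1.06 to −0.83). In 3 equal groups by GC content the medians, from the lowest group to the highest, were −0.96, −1.03 and −0.84. Rows with the G-quadruplex motif anywhere had −0.84 (n = 97) and rows without it −1.06 (n = 119), a description that sets aside neither row length, WT reads nor GC content. The log2 folds of the region had a standard deviation of 0.40 over origins, where counting error alone gives 0.228, and past the step these were 0.28 and 0.188.

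In sequence, the WT origins of the region were like those of chromosome 6 past 60 Mb and differed from those of the gene-rich stretch between. The first 20 Mb hold 91 starts of protein-coding genes, and the next 40 Mb hold 528. WT origins of the region had a median GC content of 50.4%, against 55.4% from the step to 60 Mb, 50.5% from 60 Mb to the end of the chromosome and 54.9% on other chromosomes. The G-quadruplex motif was present in 45.3% of them, against 61.1%, 47.8% and 56.4%. Of the 212, 5.66% lay at a protein-coding gene start and 20.8% in lncRNA genes alone. Their median width, 505.5 bp, was close to the 525 bp of other chromosomes. The 46 origins of the ORC2KO list, 5 of which overlap no WT origin, had a median GC content of 54.8%, and 58.7% held the motif. After the running median over GC content was taken out, the ORC2KO median of the region was −0.93.

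The major histone gene clusters lie on both sides of the step. Near the 34 histone genes before it, 1 row lay within 1000 bp of a gene start, with 92 WT reads and 62 ORC2KO reads, a log2 fold of −0.80. Near the 21 histone genes from the gap onwards, 2 rows had log2 folds of −0.31 and 0.44. With 3 rows in all, these values are no measure of the histone genes as a group, nor of a change between them at the step.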

How the data were processed

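SNS-seq was performed by the authors on 2 replicates each of WT, ORC1KO, ORC2KO and ORC5KO cells. Per the labels and the study's methods, reads were trimmed (Trim Galore 0.6.4) and aligned with Bowtie to GRCh38, peaks were called with MACS2 per replicate, and peaks of both replicates were kept as origins. The deposited counts are whole reads of the merged replicates of a line in the joined origins of WT and 1 knockout line. The counting tool and the handling of duplicates are not given in the sources used here.

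RPM was computed against the column total of each line (6416892 to 6878409 for WT, 6691088 to 8523971 for the knockout lines). The lowest count in the region was 25, and no pseudocount was used. With merged replicates no test was run, and edgeR (version 4.0.16) served only for TMM factors as another scaling. Intervals of single folds are exact binomial, and PCR reads without molecular identifiers are not independent molecules, so they cover counting error only. Intervals of medians come from order statistics over origins, which are not replicates. Origins on unplaced contigs, 0.963% to 1.10% of reads, were left out. Gene positions were taken from GENCODE release 44. Python 3.11.15, numpy 2.4.6, pandas 2.3.3, scipy 1.17.1 and R 4.3.3 were used.

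The region, the gene lists and the rules were chosen with earlier results of these data known. Named origins were the 5 with the most WT reads, the 3 lowest and 3 highest ORC2KO folds with at least 100 reads, the 3 on each side of 20 Mb and of the split, and those within 1000 bp of the start of a listed gene. The 4 origins not below 0 were named after their values were seen.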

Additional observations from a re-analysis of the deposited data

Results flagged for a closer look

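From the fitted boundary to 60 Mb, next to the region, the median log2 fold over origins was −0.069 in ORC1KO and 0.0916 in ORC2KO, with order-statistic intervals on opposite sides of 0. The difference between the lines was not tested, since each line has 1 merged value per origin. Inside the first 20 Mb no pair of lines had intervals on opposite sides of 0.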

How the results depend on the processing

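Of 104 alternatives, 81 left the value within its interval or, for a count, within 1.5 times, and 22 moved it further. Scaling by median-of-ratios, by TMM or by reads outside chromosome 6 and a minimum of 50 reads moved none of the values. Part of this was fixed in advance. Each scaling adds 1 constant to all log2 folds of a line, so it could not change a difference of medians. The minimum of 50 reads took no row out of the region, so it checked nothing there. In ORC2KO the median stayed negative under all alternatives tried, from −0.96 to −0.66, as did the difference from 20 to 60 Mb, from −1.06 to −0.74. With at least 200 reads, the ORC2KO median was −0.75, the difference −0.84 and the count down 63 of the 88 origins left. The counts down in ORC1KO and ORC5KO were 2 of 166 and 2 of 213. Among rows called in both lines the ORC2KO values were −0.66, −0.74 and 25 of the 40 origins left. The medians in ORC1KO and ORC5KO were −0.0729 and −0.0589 and the counts 2 of 135 and 0 of 157. The choice of rows called in both lines put the boundary at 23.7 Mb, the middle of the stretch without ORC2KO calls. Under the other 7 alternatives the boundary stayed in the same gap. Summed reads gave −0.82 and a difference of −0.90 in ORC2KO, and leaving out 25 to 35 Mb a difference of −0.97. At 2-fold, 92 of 216 origins were down in ORC2KO, 1 of 319 in ORC1KO and 0 of 355 in ORC5KO. The shares of all rows given above hold for 1.5-fold without a filter and are no base for the counts given here. Over rows with a WT origin, an alternative added after seeing the data like the comparison from the boundary on, the medians were −0.0975 in ORC1KO and −0.0871 in ORC5KO. After removal of the GC trend the ORC1KO median was −0.0534 and its difference turned from 0.06 to −0.0051. The causes of these shifts were not tested beyond the change of origins named. No paired analysis was possible because the tables merge the replicates of a line, and leaving out a replicate was not possible either.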

Other observations

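The level past the step was not the same throughout. A further split of the ORC2KO log2 folds between the step and 60 Mb, placed by least squares, fell at 35.38 Mb and took up 8.81% of the variance there. The 317 origins before it had a mean of 0.19 and the 426 after it 0.02. The first of these stretches follows directly on the region with lowered reads.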
